A study of Danio rerio with 12 samples.

Results

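The conjugating enzymes of the zebrafish liver were followed through 3 gene families: the glutathione S-transferases (GST), the UDP-glucuronosyltransferases (UGT) and the cytosolic sulfotransferases (SULT). Members were the genes whose name in the deposited table begins with gst and a letter, ugt and a digit, sult and a digit, or mgst. This gave 71 of 34028 genes, of which 23 were GST genes, 30 UGT genes and 18 SULT genes. The microsomal GSTs, whose names begin with mgst, were counted with the GSTs. The match is to lower case letters, so a gene listed as GSTZ1 is outside it.

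RNA was sequenced from livers of zebrafish of 1 transgenic line, which carries an oncogene per the series title, all aged 3 months. There were 3 libraries in each of 4 groups: TDCIPP+DOX, TDCIPP, DOX and DMSO, the solvent control. TDCIPP, or tris(1,3-dichloro-2-propyl)phosphate, is a flame retardant of the organophosphate class, and what DOX stands for is not written out in the labels. The title concerns the progression of liver tumours under TDCIPP in this line. The transgenic line is common to all groups, controls included. The sources used here do not give the promoter that drives the transgene, the sex of the fish, or whether a library holds 1 liver or a pool. They also do not tie each library to its own fish, and p-values therefore rest on a spread between libraries that could be partly technical.

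The 3 families make up much of the second phase of drug metabolism, in which a polar group is joined to a lipophilic compound so that it can leave the cell in bile or urine. GSTs join glutathione to electrophilic compounds. UGTs sit in the endoplasmic reticulum membrane and transfer glucuronate from UDP-glucuronate to bilirubin, steroids and foreign compounds. SULTs transfer sulfate from PAPS, the activated form of sulfate, to phenols, steroids and other hydroxyl groups. The liver is a main site of all 3 reactions, and in fish the families hold many copies that lie side by side in the genome.

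The total of reads counted in genes was 28621536 to 40877342 per library. Hepatocyte markers were high in all 12 libraries. Their summed level over 17 genes was lowest in DOX replicate 3, at 65547 CPM, and lay at 92817 to 128545 CPM in the other libraries. CPM here is a gene's read count scaled to a fixed library size with TMM factors, which are set from the genes that vary least between libraries. DOX replicate 3 stood apart: its r of log2 CPM with the other DOX libraries was at most 0.818, and its summed level of 10 oocyte markers was 951 CPM, against at most 107 CPM in any other library. Intestine transcripts peaked in 3 libraries. The villin gene vil1 stood at 172 CPM in TDCIPP+DOX replicate 3, 16.2 CPM in TDCIPP replicate 1 and 19.0 CPM in DMSO replicate 3, and at most at 5.69 CPM elsewhere. The summed level of all 9 intestine markers did not single out these libraries, at 182 to 851 CPM in TDCIPP+DOX, 699 to 995 in TDCIPP, 266 to 460 in DOX and 856 to 1339 in DMSO. Results for members are given with and without these 4 libraries where they depend on them. The part of oocyte and intestine transcripts in the members' values was not tested.

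Levels of the members were compared per length, as RPKM, which is CPM divided by the gene length in the deposited table in kilobases. A filter on low counts left 62 members for testing: 21 of 23 GST, 26 of 30 UGT and 15 of 18 SULT genes. The median level of the 62 tested members was 3.82 RPKM over the 12 libraries, against 1.62 RPKM over all 19160 genes tested. Of the 71 members 3 lay over 100 RPKM, 19 over 10 RPKM and 22 under 1 RPKM.

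Over the 12 libraries the highest members per length were GSTs. The pi class gene gstp1 averaged 235 RPKM over the 12 libraries, the theta class gene gstt1a 176 RPKM and gstr, of the rho class known from fish, 173 RPKM. By group, gstp1 stood at 208 ± 29.9 RPKM in TDCIPP+DOX, 256 ± 85.6 in TDCIPP, 256 ± 71.6 in DOX and 219 ± 49.9 in DMSO (SD, n = 3 each), so its 4 groups did not differ beyond their spread. The order was not the same in every group. In DMSO gstt1a, at 256 ± 18.4 RPKM, and gstr, at 239.9 ± 31.2 RPKM, stood above the mean of gstp1, and in TDCIPP+DOX ugt2a4, at 120 ± 15.7 RPKM, stood level with gstr, at 119 ± 19.4 RPKM, and above the mean of gstt1a, at 99.6 ± 19.7 RPKM (SD, n = 3 each). The membrane-bound mgst1.2 averaged 89.5 RPKM, mgst3b 52.4 RPKM and the kappa class gene gstk1 50.5 RPKM. The 4 GST genes with the most reads, gstr, gstt1a, gstp1 and mgst1.2, held 76.5% of the family's summed CPM.

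Among the UGTs, ugt5c2, of the UGT5 family of fish, led with 96.1 RPKM over the 12 libraries. It was followed by ugt2a4 at 66.0 RPKM, ugt1ab at 51.7 RPKM and ugt5d1 at 20.1 RPKM. The order of the first pair was not the same in every group. In TDCIPP+DOX ugt2a4 stood at 120 ± 15.7 RPKM and ugt5c2 at 104 ± 17.6 RPKM, within each other's spread, whereas in DMSO ugt2a4 stood at 34.5 ± 1.73 RPKM and ugt5c2 at 76.7 ± 15.4 RPKM (SD, n = 3 each). The family's ugt5c3 averaged 6.90 RPKM, and ugt8, which in mammals makes galactosylceramide rather than glucuronides, averaged 6.82 RPKM. The 4 UGT genes with the most reads, ugt5c2, ugt2a4, ugt1ab and ugt8, held 77.4% of the family's summed CPM.

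The SULTs were lower. The phenol sulfotransferase gene sult1st3 led with 37.3 RPKM over the 12 libraries, followed by sult3st3 at 30.5 RPKM and sult1st6 at 30.4 RPKM. The order was not the same in every group. In TDCIPP+DOX sult1st3 stood at 30.6 ± 12.6 RPKM and sult3st3 at 10.4 ± 3.24 RPKM. In DOX they stood at 35.4 ± 10.9 and 41.7 ± 23.7 RPKM, within each other's spread (SD, n = 3 each). The gene sult2st2, of the family that acts on steroids, averaged 17.2 RPKM, sult6b1 13.2 RPKM and sult1st1 9.59 RPKM. The value of sult6b1 rests on 1 library, TDCIPP replicate 1, with 111 CPM. Without that library it lay between 5.91 and 26.1 CPM. The 4 SULT genes with the most reads, sult1st3, sult1st6, sult3st3 and sult6b1, held 74.3% of the family's summed CPM.

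**Figure D1:**
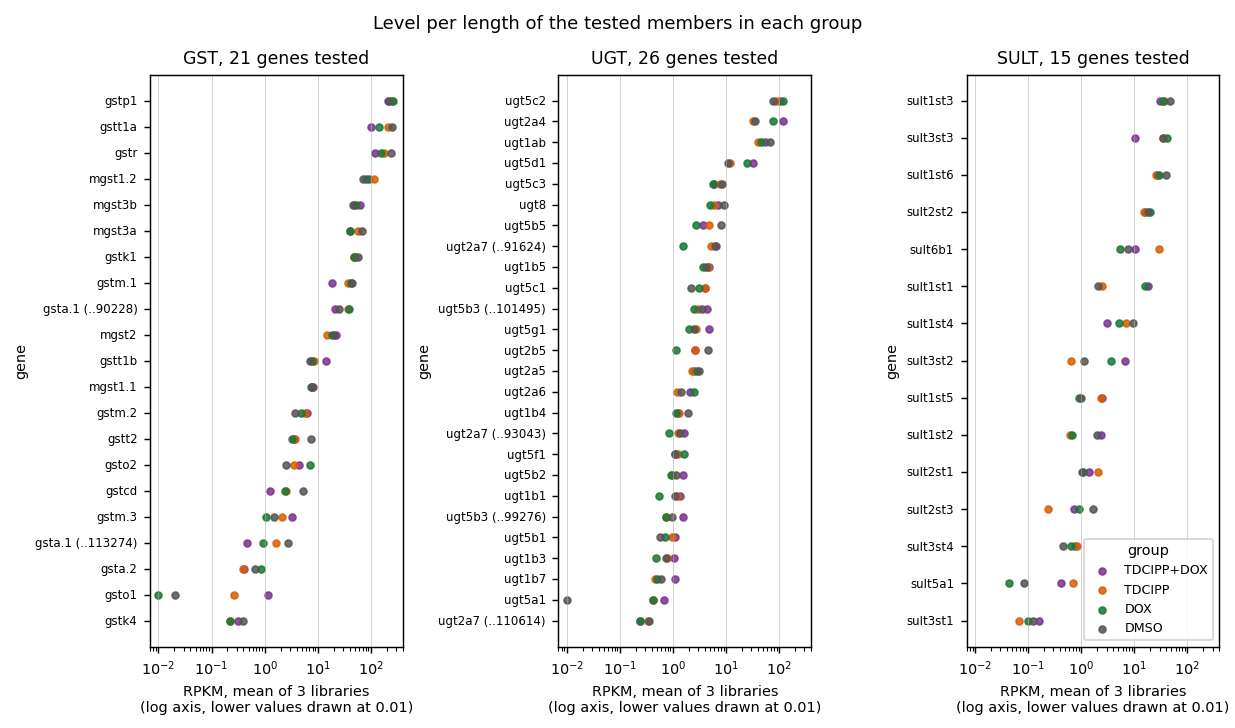
Level per length of each of the 62 tested members, as RPKM on a log axis, with 1 point per group (mean of 3 libraries; values under 0.01 RPKM are drawn at 0.01). The GST panel reaches highest, with gstp1, gstt1a and gstr over 100 RPKM on average. For most genes the 4 points lie close together, and ugt2a4, ugt5d1 and sult1st1 show the TDCIPP+DOX and DOX points to the right of the TDCIPP and DMSO points.

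As whole families, the UGT transcripts summed to more in TDCIPP+DOX than in DMSO under TMM scaling and as plain shares of reads, whereas the GST transcripts summed to less under TMM scaling and to more as plain shares. The UGT sum was 759 ± 77.3 CPM in TDCIPP+DOX, 459 ± 85.3 in TDCIPP, 616 ± 172 in DOX and 525 ± 57.1 in DMSO (SD, n = 3 each). The lowest TDCIPP+DOX library, at 691 CPM, lay above the highest DMSO library, at 575 CPM, and above the highest TDCIPP library, at 547 CPM. The GST sum was 1046 ± 106 CPM in TDCIPP+DOX, 1426 ± 258 in TDCIPP, 1216 ± 341 in DOX and 1523 ± 145 in DMSO. Here the highest TDCIPP+DOX library, at 1129 CPM, lay under the lowest DMSO library, at 1420 CPM. A pair of genes in each family carried most of these differences. Without ugt2a4 and ugt5d1 the UGT sum was 456 ± 52.8 CPM in TDCIPP+DOX and 436 ± 49.9 in DMSO, and without gstt1a and gstr the GST sum was 668 ± 50.8 CPM in TDCIPP+DOX and 681 ± 96.3 in DMSO, with overlap in both. Under TMM scaling the SULT sum overlapped between all groups, at 191 ± 48.1 CPM in TDCIPP+DOX, 223 ± 50.6 in TDCIPP, 223 ± 82.9 in DOX and 234 ± 39.98 in DMSO. In bulk liver, fewer cells of a type and less RNA per cell cannot be told apart, for these sums and for every gene described here.

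As a plain share of reads the GSTs held 0.148% ± 0.0121 in TDCIPP+DOX and 0.106% ± 0.0118 in DMSO (SD, n = 3 each), the opposite order to that under TMM. The UGTs held 0.108% ± 0.0096 of reads in TDCIPP+DOX and 0.037% ± 0.00732 in DMSO, the same order as with TMM, and the SULTs 0.0271% ± 0.00641 in TDCIPP+DOX and 0.0162% ± 0.0013 in DMSO. With library totals instead of TMM, all genes had a median log2 fold change of 1.11 for TDCIPP+DOX against DMSO, where TMM put it at 0.10, and 0.83 for DOX against DMSO, where TMM put it at 0.12. It was 0.39 for TDCIPP against DMSO, where TMM gave 0.02, 0.23 for TDCIPP+DOX against DOX, where TMM gave -0.08, and 0.64 for TDCIPP+DOX against TDCIPP, where TMM gave -0.01. All directions are given relative to the TMM reference.

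**Figure D2:**
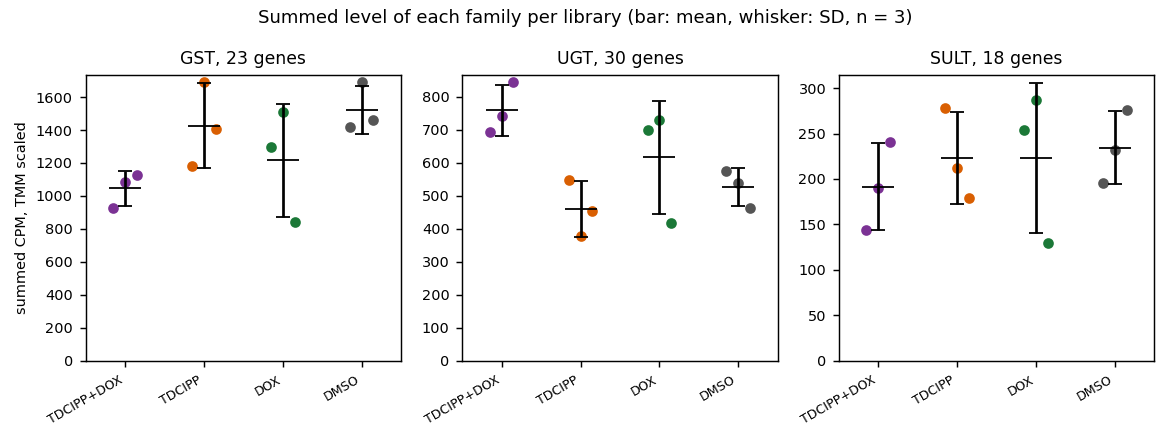
Summed level of each family in every library, in CPM scaled by TMM (point: library, bar: group mean, whisker: SD, n = 3). UGT sums of all TDCIPP+DOX libraries lie above those of TDCIPP and DMSO, GST sums of all TDCIPP+DOX libraries lie below those of DMSO (the opposite order to plain shares of reads), and SULT sums overlap between all groups.

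DOX was set against DMSO to show what DOX does in this line without TDCIPP. Among the members sult1st1, ugt5d1 and ugt2a4 rose and ugt2b5 and ugt2a7 fell. These 5 of 62 members are 8.06%, against 6.86% of all genes tested, 3.93% higher and 2.93% lower, so the share called was near that of the transcriptome. A gene is called here at an adjusted p under 0.05 from edgeR's quasi-likelihood test, with Benjamini-Hochberg adjustment over all 19160 genes. This main fit holds all 12 libraries, with TMM scaling and no block for the replicate number. Fold changes are edgeR's log2 values with their SE. The median log2 fold change of the 62 members was -0.29, against 0.12 for all genes. Without the 4 libraries with oocyte or intestine transcripts these were -0.10 and -0.01. Under library totals the members' median was 0.36 and that of all genes 0.83.

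The sulfotransferase gene sult1st1 (chromosome 8, 46499098 to 46509194, minus strand, in the deposited table, whose genome build the sources used here do not give) encodes an enzyme of the phenol-sulfating SULT1 family. It had 36.1, 26.7 and 14.6 CPM in the DOX libraries and 1.997, 1.84 and 6.27 CPM in the DMSO libraries. The lowest DOX library, replicate 3, was still above every DMSO library. The gene rose by 2.93 ± 0.49 in log2 units (edgeR adjusted p = 0.0117), a 7.64-fold difference. Without DOX replicate 3 the log2 fold change was 3.22 (edgeR adjusted p = 0.00949), and without the 4 libraries with oocyte or intestine transcripts it was 4.05. With only the groups compared in the fit the call was lost (edgeR adjusted p = 0.0734). With all libraries no other SULT was called in this comparison: of the 15 tested, 6 lay above 0 and 9 below, with a median of -0.31. Without the 4 libraries sult3st2 was called as well, at 3.76 in log2 units (edgeR adjusted p = 0.0376), 9 SULTs lay above 0 and 6 below, and the median was 0.14.

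Of the UGTs, ugt2a4, of the UGT2 family that in mammals acts on steroids and bile acids, had 207, 194 and 88.4 CPM in the DOX libraries and 76.5, 69.2 and 72.4 CPM in the DMSO libraries. DOX replicate 3 lay close to the DMSO libraries and the other DOX libraries far above them. The gene rose by 1.17 ± 0.29 in log2 units (edgeR adjusted p = 0.0361), and by 1.47 without DOX replicate 3. The gene ugt5d1 had 43.0, 43.4 and 29.6 CPM in the DOX libraries and 20.8, 18.7 and 9.63 CPM in the DMSO libraries. The groups did not overlap, and ugt5d1 rose by 1.24 ± 0.29 in log2 units (edgeR adjusted p = 0.0316). The call of ugt2a4 was lost in 13 of 20 alternatives and that of ugt5d1 in 10 of 20, with adjusted p of at most 0.126 and 0.116.

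Both UGT genes that fell lie on chromosome 5. The gene ugt2b5 had 2.14, 2.26 and 1.38 CPM in the DOX libraries and 6.99, 9.94 and 5.73 CPM in the DMSO libraries, and fell by 1.97 ± 0.39 in log2 units (edgeR adjusted p = 0.0199). The table lists 3 genes under the name ugt2a7. The one with identifier ENSDARG00000091624, the neighbour of ugt2b5, had 4.97, 2.70 and 1.29 CPM in the DOX libraries and 12.7, 11.3 and 11.2 CPM in the DMSO libraries. It fell by 1.97 ± 0.44 in log2 units (edgeR adjusted p = 0.029), with no overlap between the groups. The call of ugt2a7 was lost in 5 of 20 alternatives and that of ugt2b5 in 4. Without DMSO replicate 1 or 2, or with only the groups compared in the fit, neither gene was called. Without DMSO replicate 3 or DOX replicate 2 the call of ugt2a7 was lost, and without the 4 libraries with oocyte or intestine transcripts that of ugt2b5 (edgeR adjusted p = 0.0608). The summed levels of some marker lists of other cell types were also low in DOX, and others were not. The list of 9 intestine genes stood at 266 to 460 CPM in DOX and 856 to 1339 in DMSO, mostly through rbp2a. The summed level over 9 genes of neutrophils and macrophages was 149 to 238 CPM in TDCIPP+DOX, 124 to 327 in TDCIPP, 49.2 to 58.7 in DOX and 61.0 to 126 in DMSO. Its genes did not all go the same way. The gene marco stood at 9.62 to 11.2 CPM in the DOX libraries and at 4.63, 7.23 and 44.8 CPM in the DMSO libraries. The gene mpeg1.1 overlapped between DOX and DMSO. The summed level over 7 genes of erythrocytes was 153 to 751 CPM in TDCIPP+DOX, 392 to 1098 in TDCIPP, 71.4 to 230 in DOX and 335 to 731 in DMSO. That over 13 genes of the exocrine pancreas had a median of 647 CPM in TDCIPP+DOX, 658 in TDCIPP, 168 in DOX and 959 in DMSO. Its range in DOX, 61.0 to 952 CPM, overlapped that in DMSO, 546 to 2908 CPM. The list of biliary epithelium overlapped as well, at 483 to 1265 CPM in DOX and 844 to 1135 in DMSO. So did the oocyte list, at 5.98 to 951 CPM in DOX and 15.3 to 45.1 in DMSO. The hepatocyte list overlapped too, at 65547 to 122102 CPM in DOX and 92817 to 128545 in DMSO. The part of these cell types in the values of ugt2b5 and ugt2a7 was not tested.

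No GST was called for DOX against DMSO in the main fit, and before adjustment 0 of 21 were higher and 3 lower at p under 0.05. DESeq2 called 1, gstcd, which was lower in DOX, as did edgeR with the replicate number as a block and without DOX replicate 3. Without the 4 libraries with oocyte or intestine transcripts edgeR called gstcd, lower in DOX, and gsta.1 (ENSDARG00000090228), higher in DOX. Under library totals it called gsta.1 (ENSDARG00000090228), gstm.2, gstp1 and mgst3b, all higher in DOX. Over all genes the fit without the 4 libraries called 684 of 19171, 465 higher and 219 lower. The fit under library totals called 5033 of 19160, 4802 higher and 231 lower. In the main fit 5 members over all 3 families were higher and 9 lower before adjustment, at p under 0.05, which 16.3% and 10.4% of all genes were. Without the 4 libraries the members' counts were 11 higher and 4 lower of 61 tested. The shares over all genes before adjustment belong to the main fit and not to that fit. The counts of 11 and 4 therefore cannot be read as particular to the members. Beyond the 5 called members, DESeq2 also called ugt5b5. The UGTs leaned low, with 18 of 26 below 0 and a median of -0.34. These 18 include genes of the ugt1b and ugt5b runs, whose listed spans overlap, so their counts are uncertain. Without the 4 libraries the UGT median was -0.16, with 16 of 26 below 0, and that of all genes -0.01. Without DOX replicate 1 these medians were -0.65 and 0.07. With library totals as the scaling, and a median of 0.83 over all genes, 8 of 26 lay below 0 and the UGT median was 0.32.

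**Figure D3:**
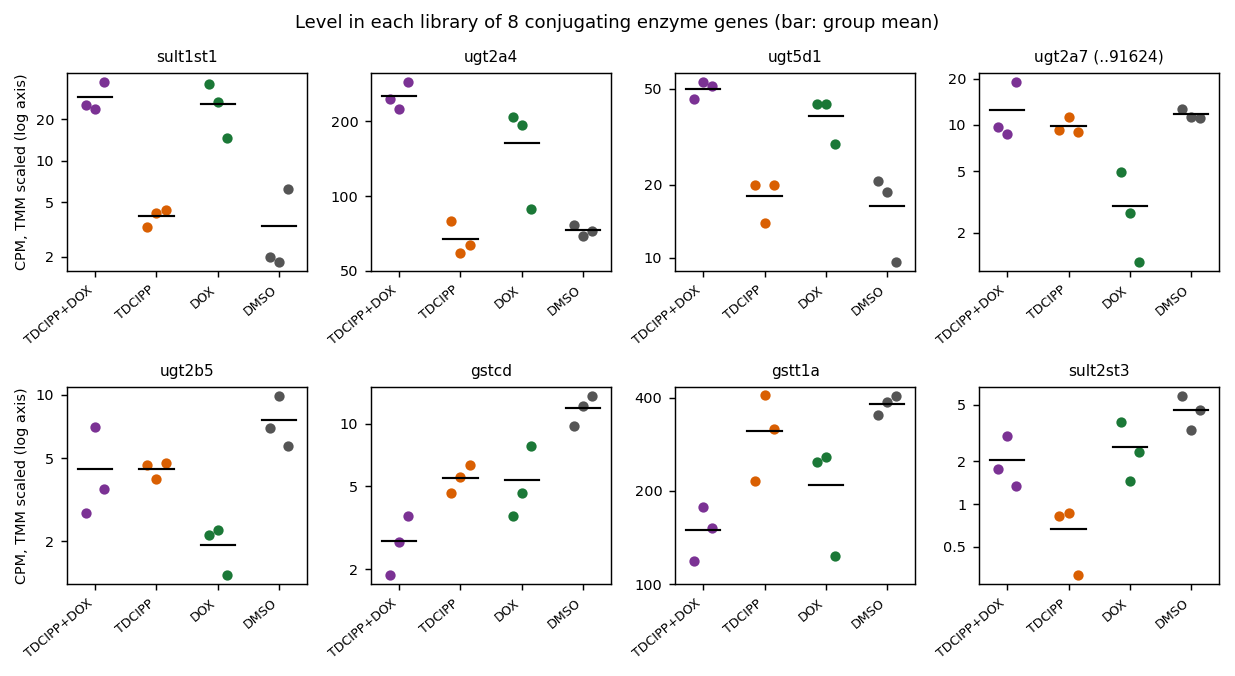
Level of 8 members in each of the 12 libraries, in CPM scaled by TMM on a log axis (point: library, bar: group mean). In sult1st1, ugt2a4 and ugt5d1 the TDCIPP+DOX and DOX libraries lie above the TDCIPP and DMSO libraries, in ugt2a7 (ENSDARG00000091624) and ugt2b5 the DOX libraries lie lowest, in gstcd and gstt1a the DMSO libraries are high and the TDCIPP+DOX libraries low, and in sult2st3 the TDCIPP libraries lie lowest.

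TDCIPP+DOX was set against DMSO to show both agents together. Here sult1st1, ugt2a4 and ugt5d1 rose and gstcd and gstt1a fell. These 5 of 62 members are 8.06%, against 11.7% of all genes tested, 5.33% higher and 6.37% lower. The median log2 fold change of the 62 members was 0.18, against 0.10 for all genes, and without TDCIPP+DOX replicate 3 the members' median was -0.01.

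The level of sult1st1 was 25.6, 23.7 and 37.2 CPM in the TDCIPP+DOX libraries and 1.997, 1.84 and 6.27 CPM in the DMSO libraries, a rise of 3.09 ± 0.50 in log2 units (edgeR adjusted p = 0.00358). The gene ugt2a4 had 247, 223 and 289 CPM in the TDCIPP+DOX libraries and 76.5, 69.2 and 72.4 CPM in the DMSO libraries, a rise of 1.80 ± 0.29 (edgeR adjusted p = 0.00372). The gene ugt5d1 had 45.5, 53.1 and 51.4 CPM in the TDCIPP+DOX libraries and 20.8, 18.7 and 9.63 CPM in the DMSO libraries, a rise of 1.61 ± 0.29 (edgeR adjusted p = 0.00563). For all 3 genes every TDCIPP+DOX library lay above every DMSO library. The calls held in all 20 alternatives, with adjusted p of at most 0.0234. The alternative that required a log2 fold change of at least 1 in the same fit could not have lost them. The summed level of 8 markers of the biliary epithelium was 1172 to 1482 CPM in TDCIPP+DOX, 803 to 1046 in TDCIPP, 483 to 1265 in DOX and 844 to 1135 in DMSO. Most of it came from krt8 and anxa4, and krt8 reached 873 CPM in DOX replicate 1. In TDCIPP+DOX replicate 3 epcam, at 6.06 CPM, and krt18b, at 6.55 CPM, lay under every DMSO library. The genes of the list thus did not move together, and their part in the values of the 3 called genes was not tested.

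Both GST genes that fell were lower in every TDCIPP+DOX library than in any DMSO library. The gene gstcd encodes a protein with the C-terminal domain of the GSTs. It had 1.88, 2.72 and 3.62 CPM in TDCIPP+DOX and 9.76, 12.2 and 13.7 CPM in DMSO, and fell by 2.12 ± 0.34 in log2 units (edgeR adjusted p = 0.00372). Under library totals its log2 fold change was -1.09 and the call was lost (edgeR adjusted p = 0.0727). The abundant theta class gene gstt1a had 119, 177 and 151 CPM in TDCIPP+DOX and 353, 389 and 407 CPM in DMSO. It fell by 1.36 ± 0.31 in log2 units (edgeR adjusted p = 0.0182). Its call was lost under library totals, where the log2 fold change was -0.34 (edgeR adjusted p = 0.25), and without DMSO replicate 2 or 3 or TDCIPP+DOX replicate 1 or 3, with adjusted p of 0.0523 to 0.085.

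Several other members lay far apart in this comparison and did not pass edgeR's test in the main fit. The second gene listed as gsta.1, ENSDARG00000113274 of the alpha class, had 0.182, 0.444 and 0.323 CPM in TDCIPP+DOX and 1.09, 2.96 and 1.48 CPM in DMSO (log2 fold change -2.52 ± 0.76, edgeR adjusted p = 0.0548). DESeq2 called it (DESeq2 adjusted p = 0.00694), as did edgeR with the replicate number as a block, with only the groups compared and without DOX replicate 3. Its neighbour of the same name, ENSDARG00000090228, stood at 20.03 ± 6.71 CPM in TDCIPP+DOX and 23.9 ± 6.61 CPM in DMSO (SD, n = 3 each). Near-identical copies can share reads, so the split between the pair is uncertain. The gene gstr stood at 228 ± 37.1 CPM in TDCIPP+DOX and 459 ± 59.7 CPM in DMSO (log2 fold change -1.01 ± 0.35, edgeR adjusted p = 0.0843). DESeq2 called it (DESeq2 adjusted p = 0.042), as did edgeR with only the groups compared, without TDCIPP replicate 1 and without the 4 libraries with oocyte or intestine transcripts. This difference depends on the scaling: without TMM factors gstr stood at 323 ± 46.2 CPM in TDCIPP+DOX and 322 ± 60.5 CPM in DMSO (SD, n = 3 each), and under library totals its log2 fold change was 0.0041.

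A pair of low members had almost no reads in DMSO. The gene ugt5a1 had 200 reads over the TDCIPP+DOX libraries and 0 over the DMSO libraries. That puts it at least 28.5-fold higher in TDCIPP+DOX with a floor of 3 reads for the 3 DMSO libraries together, a bound that covers counting error only. It was at least 17.3-fold higher in TDCIPP, with 82 reads, and at least 19.4-fold higher in DOX, with 96 reads. Within groups it was uneven: 80 of the 82 reads in TDCIPP came from replicate 1, and DOX replicate 2 had 0. The listed span of ugt5a1 overlaps that of ugt5a2, so the authors' counting could split or drop reads in shared sequence. The read counts of ugt5a1 and the bounds from them are uncertain for this reason. In the main fit no comparison of ugt5a1 passed edgeR's test (lowest edgeR adjusted p = 0.12). For TDCIPP+DOX against DMSO it was called by DESeq2 (DESeq2 adjusted p = 0.0396) and by edgeR with only the groups compared in the fit or with library totals (edgeR adjusted p = 0.0382 and 0.0411).

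The omega class gene gsto1 had 249 reads over the TDCIPP+DOX libraries and 2 over the DMSO libraries, a ratio of 53.2 after scaling (95% exact counting interval 14.6 to 441). Against DOX, with 1 read, the ratio was 175 (31.2 to 6958). By library gsto1 had 77, 0 and 172 reads in TDCIPP+DOX, so replicate 2 was no different from the libraries of DOX and DMSO, and edgeR's adjusted p was 0.0745 against DMSO and 0.082 against DOX. The library with the most gsto1 reads, TDCIPP+DOX replicate 3, was also the one with the highest vil1, at 172 CPM. Its summed level of the 9 intestine markers, 851 CPM, was under that of every DMSO library, at 856 to 1339 CPM. The part of intestine transcripts in the gsto1 value was not tested.

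TDCIPP+DOX was set against TDCIPP to show DOX where TDCIPP was present. In the main fit the 3 members that rose were ugt2a4, sult1st1 and ugt5d1, and 0 fell. They are 4.84% of the 62 members, against 4.18% of all genes tested, 2.03% higher and 2.16% lower. The median log2 fold change was 0.10 over the members and -0.01 over all genes. Without the 4 libraries with oocyte or intestine transcripts 6 of 61 members were called, and 844 of 19171 genes. The same 3 members were higher, and gstcd, gstt1a and sult3st3 were lower. DESeq2 called 7 of 69 members, 5 higher, with gstt1a and sult3st3 lower, and 1638 of 28600 genes. With the replicate number as a block edgeR called 4, 3 higher and gstcd lower, and 727 of 19160 genes.

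The gene ugt2a4 had 247, 223 and 289 CPM in the TDCIPP+DOX libraries and 79.7, 59.0 and 63.6 CPM in the TDCIPP libraries, a rise of 1.91 ± 0.29 in log2 units (edgeR adjusted p = 0.0087). The gene sult1st1 had 25.6, 23.7 and 37.2 CPM in TDCIPP+DOX and 3.31, 4.16 and 4.36 CPM in TDCIPP, a rise of 2.87 ± 0.49 (edgeR adjusted p = 0.0126). The gene ugt5d1 had 45.5, 53.1 and 51.4 CPM in TDCIPP+DOX and 20.01, 13.98 and 20.04 CPM in TDCIPP, a rise of 1.47 ± 0.29 (edgeR adjusted p = 0.0204). The libraries of the groups stood well apart for all 3 genes. Without TDCIPP replicate 2 none of them was called (adjusted p of 0.0516 to 0.0913), and without TDCIPP replicate 3 or TDCIPP+DOX replicate 3 only ugt2a4 was called. Without TDCIPP+DOX replicate 1 or 2 the call of ugt5d1 was lost.

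The gene sult3st2 lay just outside the threshold, with 10.4, 3.09 and 12.05 CPM in TDCIPP+DOX and 0.552, 1.25 and 0.658 CPM in TDCIPP (log2 fold change 3.38 ± 0.89, edgeR adjusted p = 0.0593). DESeq2 called it (DESeq2 adjusted p = 0.00114). Its neighbour sult3st3 lay the other way, at 9.21, 15.1 and 9.03 CPM in TDCIPP+DOX and 16.4, 63.7 and 32.6 CPM in TDCIPP (log2 fold change -1.76 ± 0.57, edgeR adjusted p = 0.118). DESeq2 called it (DESeq2 adjusted p = 0.0314), as did edgeR without the 4 libraries with oocyte or intestine transcripts (edgeR adjusted p = 0.0333).

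TDCIPP was set against DMSO to show the compound without DOX. No member was called by edgeR: 0 of 62, against 0.0418% of all genes tested. Before adjustment 4 members were higher and 3 lower at p under 0.05, which 6.0% and 4.02% of all genes were. DESeq2 called 1 of 69 members, sult2st3, and 414 of 28600 genes. Here and elsewhere, the 69 and 28600 are all that DESeq2 fitted and can include genes that it left without an adjusted p. The median log2 fold change was -0.18 over the members and 0.02 over all genes. It was -0.02 over the members without the 4 libraries with oocyte or intestine transcripts.

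The SULT2 gene sult2st3 had 0.827, 0.867 and 0.317 CPM in the TDCIPP libraries and 5.81, 3.30 and 4.61 CPM in the DMSO libraries. Every TDCIPP library was lower than every DMSO library, and than every library of the other groups (log2 fold change -2.77 ± 0.53, edgeR adjusted p = 0.12). In the authors' deposited table its adjusted p for this comparison was 0.001, the only one of 69 members with a p there that was under 0.05. Of all genes with a p there, 66 of 26690 were under 0.05. The gene gstcd stood at 4.66, 5.55 and 6.32 CPM in TDCIPP and 9.76, 12.2 and 13.7 CPM in DMSO (log2 fold change -1.11 ± 0.33, edgeR adjusted p = 0.283), again with no overlap.

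The members that were high in DOX lay near the solvent level with TDCIPP alone. The log2 fold change of sult1st1 for TDCIPP against DMSO was 0.23 ± 0.47, that of ugt2a4 -0.11 ± 0.28 and that of ugt5d1 0.14 ± 0.28 (edgeR adjusted p = 0.896, 0.921 and 0.897). The sign of the sult1st1 value was not stable: it was -0.04 without DMSO replicate 1 and -0.07 without DMSO replicate 2. A low SULT, sult5a1, had 1.84, 0.485 and 1.83 CPM in TDCIPP and 0.0454, 0.0485 and 0.403 CPM in DMSO (log2 fold change 3.03 ± 1.08, edgeR adjusted p = 0.362).

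TDCIPP+DOX was set against DOX to show what TDCIPP adds where DOX is present. The only member called was ugt2a7 (ENSDARG00000091624), which rose. That is 1.61% of the 62 members, against 2.1% of all genes tested, 0.71% higher and 1.39% lower. It had 9.75, 8.69 and 18.9 CPM in the TDCIPP+DOX libraries and 4.97, 2.70 and 1.29 CPM in the DOX libraries. Each TDCIPP+DOX library lay above each DOX library, and the log2 fold change was 2.06 ± 0.44 (edgeR adjusted p = 0.0451). The call was lost in 14 of 20 alternatives, among them every fit that left out 1 library other than DOX replicate 1 or 3, with adjusted p of 0.0507 to 0.165. Without TDCIPP+DOX replicate 3 the log2 fold change was 1.63, and without the 4 libraries with oocyte or intestine transcripts it was 1.28.

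Most UGTs lay high in this comparison, with 21 of 26 above 0 and a median log2 fold change of 0.56, against -0.08 for all genes. These 21 include all tested genes of the ugt1b run, at 0.14 to 1.32, and of the ugt5b run, at 0.44 to 1.07. The listed spans overlap within each run, so their counts are uncertain and may not be independent. The share of all genes above 0 is not given here. Without DOX replicate 3 the count of UGTs above 0 was again 21 of 26, with a median of 0.55, against 0.13 for all genes in that fit. Without the 4 libraries with oocyte or intestine transcripts it was 20 of 26, with a median of 0.25, against 0.10 for all genes in that fit. This comparison shares its DOX libraries with DOX against DMSO, in which 18 of 26 UGTs lay below 0, so opposite values in the pair of comparisons are not independent. For ugt2a7 (ENSDARG00000091624) the TDCIPP+DOX level was close to that of DMSO, with a log2 fold change of 0.09 ± 0.42 (edgeR adjusted p = 0.927). For ugt2b5 the TDCIPP+DOX libraries had 2.73, 7.05 and 3.56 CPM and the DOX libraries 2.14, 2.26 and 1.38 CPM (log2 fold change 1.21 ± 0.38, edgeR adjusted p = 0.102).

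The members that were high in DOX were not called between TDCIPP+DOX and DOX. The log2 fold change was 0.16 ± 0.45 for sult1st1, 0.37 ± 0.28 for ugt5d1 and 0.63 ± 0.28 for ugt2a4 (edgeR adjusted p = 0.849, 0.431 and 0.199). The sign for sult1st1 was reversed without DOX replicate 3, at -0.12. For ugt2a4 all TDCIPP+DOX libraries, from 223 CPM up, lay above all DOX libraries, from 207 CPM down.

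Lower in TDCIPP+DOX than in DOX, without passing the test, were sult3st3 and gstm.1. The SULT3 gene sult3st3 had 9.21, 15.1 and 9.03 CPM in TDCIPP+DOX and 49.1, 67.0 and 17.1 CPM in DOX (log2 fold change -1.998 ± 0.57, edgeR adjusted p = 0.084). The mu class gene gstm.1 had 15.8, 28.7 and 16.7 CPM in TDCIPP+DOX and 28.7, 58.2 and 53.2 CPM in DOX (log2 fold change -1.20 ± 0.41, edgeR adjusted p = 0.123). Higher in TDCIPP+DOX, also without passing, was sult5a1, with 1.57, 0.515 and 0.366 CPM in TDCIPP+DOX and 0.205, 0.0365 and 0.0219 CPM in DOX (log2 fold change 3.18 ± 1.095, edgeR adjusted p = 0.123). DESeq2 called 7 of 69 members here, gsto1, gstm.3, sult3st3, sult5a1, ugt2b5, ugt5b3 (ENSDARG00000101495) and ugt2a7 (ENSDARG00000091624). Over all genes it called 2102 of 28600.

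**Figure D4:**
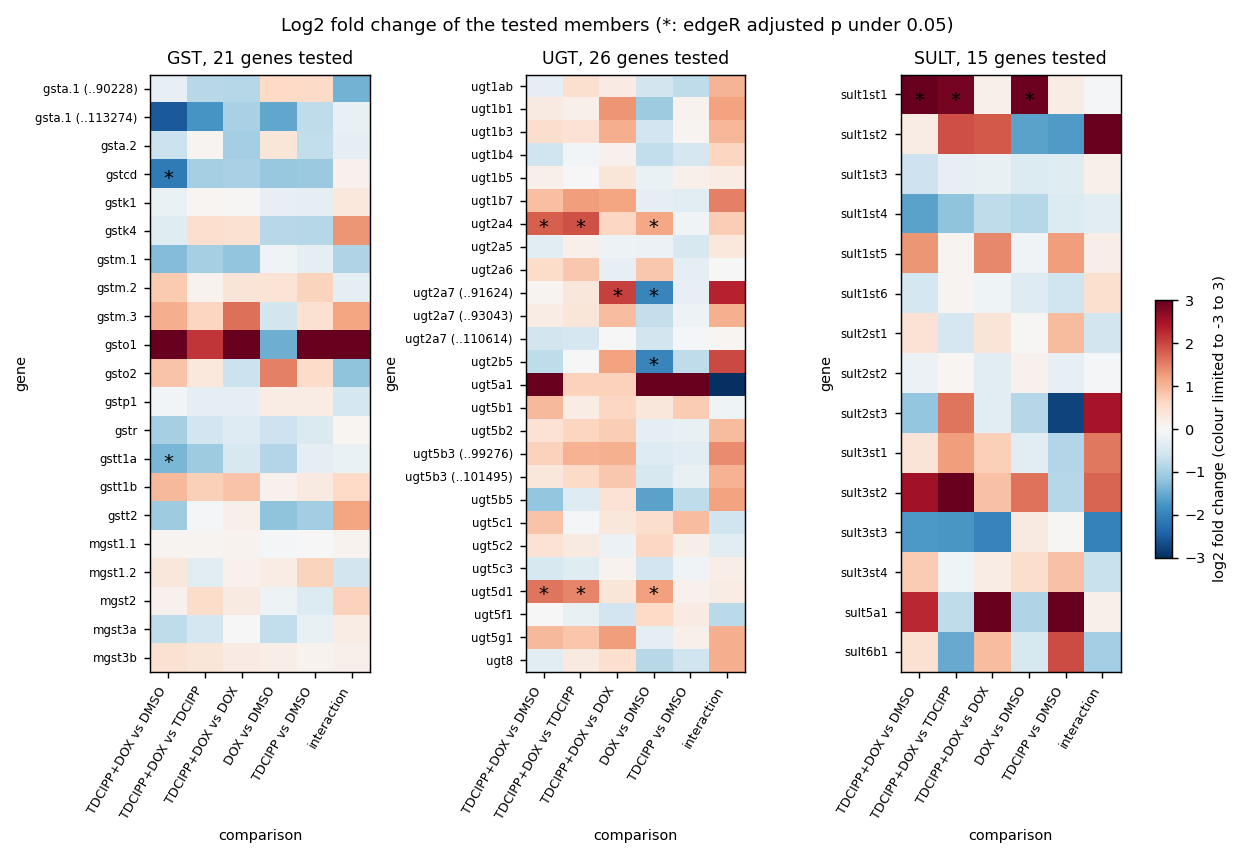
Log2 fold change of the 62 tested members in 5 comparisons between groups and in the interaction, by family, with the colour limited to -3 to 3 and a star at an edgeR adjusted p under 0.05. Most cells are pale, and the stars gather at sult1st1, ugt2a4 and ugt5d1. The UGT column for TDCIPP+DOX against DOX is red for 21 of 26 genes, among them genes whose listed spans overlap.

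Whether the effect of TDCIPP differed with and without DOX was tested as an interaction, the difference of TDCIPP+DOX and DOX less the difference of TDCIPP and DMSO. No member was called by edgeR: 0 of 62, against 0.0261% of all genes tested. Before adjustment 7 members were higher and 2 lower at p under 0.05, which 5.51% and 7.32% of all genes were. DESeq2 called 278 of 28600 genes, among them 3 of 69 members, sult2st3, ugt2a7 (ENSDARG00000091624) and ugt2b5. These had edgeR interactions of 2.46 ± 0.71, 2.31 ± 0.61 and 1.97 ± 0.53 in log2 units (edgeR adjusted p = 0.314, 0.283 and 0.291). Among the members past p of 0.05 before adjustment, the lowest were sult3st3 at -2.03 ± 0.79 and gsta.1 (ENSDARG00000090228) at -1.43 ± 0.57, and the highest was sult1st2 at 3.55 ± 1.52 (edgeR adjusted p = 0.377, 0.378 and 0.38). The value of sult1st2 rests on TDCIPP+DOX replicate 3, where it stood at 10.2 CPM, against 0.989 and 0.373 CPM in the other TDCIPP+DOX libraries, and without that library its interaction was 1.06. For sult1st1 the interaction was -0.07 ± 0.65 (edgeR adjusted p = 0.974). For ugt2a4 and ugt5d1 it was 0.74 ± 0.40 and 0.23 ± 0.40 (edgeR adjusted p = 0.432 and 0.822).

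Many members lie in runs of related genes, and neighbours shared the values of the called genes in some runs and not in others. Of the 71 members 47 lay in 15 runs with gaps of at most 100 kb. On chromosome 8, between 46447061 and 46581448, sult1st1 lies with sult1st7, sult1st9, sult1st2 and sult1st3. In DOX against DMSO the log2 fold change was 2.93 for sult1st1, -1.61 for sult1st2 and -0.40 for sult1st3, while sult1st7 and sult1st9 had too few reads to be tested. On chromosome 5, between 69856153 and 69948119, ugt2a4 lies with ugt2a6 and ugt2a5, whose log2 fold changes for TDCIPP+DOX against DMSO were 1.80 for ugt2a4, 0.56 for ugt2a6 and -0.33 for ugt2a5. Per length, ugt2a4 stood at 66.0 RPKM over the 12 libraries, ugt2a5 at 2.67 RPKM and ugt2a6 at 1.78 RPKM.

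The run on chromosome 5 between 9377005 and 9438370 holds ugt2b5 and the 3 genes named ugt2a7. For DOX against DMSO the log2 fold change was -1.97 for both ugt2b5 and ENSDARG00000091624, -0.71 for ENSDARG00000093043 and -0.55 for ENSDARG00000110614, the last a gene with at most 0.39 CPM. On chromosome 22, between 15315655 and 15342165, sult3st3 lies with sult3st4 and sult3st2. Their log2 fold changes for TDCIPP+DOX against TDCIPP were -1.76 for sult3st3, -0.14 for sult3st4 and 3.38 for sult3st2. In the runs of ugt1b genes on chromosome 11, ugt5b genes on chromosome 1 and ugt5a genes on chromosome 25 the listed spans overlap. The authors' counting could therefore split or drop reads that fall in shared sequence, and the values of these genes are uncertain.

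**Figure D5:**
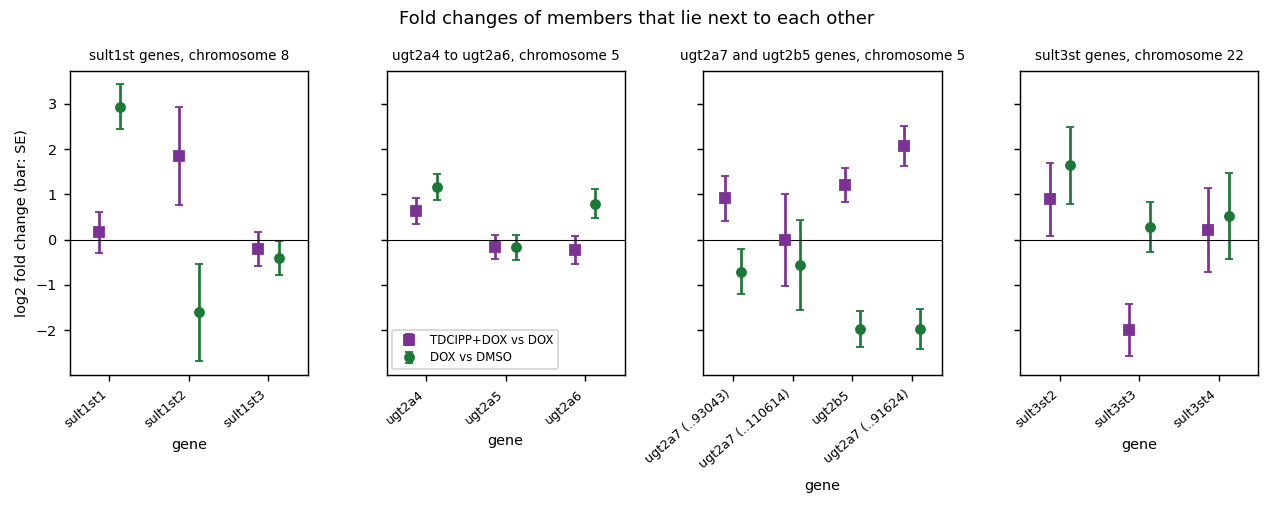
Log2 fold change with its SE for members of 4 runs of neighbouring genes, for TDCIPP+DOX against DOX (squares) and DOX against DMSO (circles). In DOX against DMSO sult1st1 lies at 2.93 beside sult1st2 at -1.61, and ugt2b5 and ugt2a7 (ENSDARG00000091624) lie at -1.97 in DOX against DMSO and above 0 in TDCIPP+DOX against DOX, a pair of comparisons that share the DOX libraries.

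The genes that supply, regulate and carry away the conjugates were read from 6 lists with 88 entries, of which 84 were in the table and 76 tested. For DOX against DMSO 5 were higher and 4 lower, for TDCIPP+DOX against DOX 0 and 1, for TDCIPP+DOX against DMSO 6 and 6, and for TDCIPP+DOX against TDCIPP 3 and 3. Of all genes 6.86%, 2.1%, 11.7% and 4.18% were called in these 4 comparisons. For TDCIPP against DMSO and for the interaction edgeR called 0, where 0.0418% and 0.0261% of all genes were called. Before adjustment 3 were higher and 2 lower at p under 0.05 for TDCIPP against DMSO, and 8 higher and 2 lower for the interaction, against 6.0% and 4.02% of all genes for TDCIPP against DMSO and 5.51% and 7.32% for the interaction. Levels and calls of the listed genes are given under TMM scaling only, from the main fit. How their calls change in the alternatives is not given, except for 1 call of ahcy.

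The supply of UDP-glucuronate, the sugar donor of the UGTs, had 2 of 7 tested genes higher in DOX than in DMSO and 0 lower, where 3.93% of all genes were higher and 2.93% lower. The gene ugdh, whose enzyme oxidises UDP-glucose to UDP-glucuronate, stood at 64.4 ± 16.3 CPM in DOX and 27.0 ± 9.70 CPM in DMSO (SD, n = 3 each), a rise of 1.26 ± 0.29 in log2 units (edgeR adjusted p = 0.031). The gene ugp2b, whose enzyme makes UDP-glucose, stood at 30.3 ± 6.62 CPM in DOX and 11.6 ± 1.44 CPM in DMSO (edgeR adjusted p = 0.00784). It also rose in TDCIPP+DOX, to 20.3 ± 2.38 CPM, against DMSO (edgeR adjusted p = 0.0251) and against TDCIPP, at 11.7 ± 0.804 CPM (edgeR adjusted p = 0.0496).

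Of 18 tested genes of glutathione synthesis and turnover gss, cth and slc7a11 rose and 0 fell in DOX against DMSO, in which 3.93% of all genes rose and 2.93% fell. The glutathione synthetase gene gss stood at 3.999 ± 1.76 CPM in DOX and 1.18 ± 0.0696 CPM in DMSO (edgeR adjusted p = 0.045). The gene cth, whose enzyme releases cysteine from cystathionine, stood at 45.1 ± 23.4 CPM in DOX and 17.4 ± 1.88 CPM in DMSO (edgeR adjusted p = 0.0301). In TDCIPP+DOX against DMSO 3 rose, the glutathione reductase gene gsr, cth and the cystine transporter gene slc7a11, and 2 fell, the 5-oxoprolinase gene oplah and cbsa, a cystathionine beta-synthase gene. Of all genes 5.33% rose and 6.37% fell in that comparison. The gene gsr stood at 26.4 ± 10.02 CPM in TDCIPP+DOX and 9.16 ± 1.44 CPM in DMSO, and cbsa at 80.3 ± 28.3 CPM in TDCIPP+DOX and 318 ± 109 CPM in DMSO (edgeR adjusted p = 0.00949 and 0.0148). In TDCIPP+DOX against TDCIPP cth and slc7a11 rose and 0 fell, where 2.03% of all genes rose and 2.16% fell.

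Of 11 tested genes of PAPS supply and desulfation 0 were called in DOX against DMSO, where 6.86% of all genes were. Before adjustment 4 were higher and 1 lower at p under 0.05, which 16.3% and 10.4% of all genes were. In TDCIPP+DOX against DMSO the steroid sulfatase gene sts and the sulfide oxidase gene sqor rose and 0 fell, where 5.33% of all genes rose and 6.37% fell. The level of sts, which removes sulfate from steroids, was 7.61 ± 2.48 CPM in TDCIPP+DOX and 2.63 ± 0.883 CPM in DMSO (edgeR adjusted p = 0.0148).

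Of 9 tested genes of other conjugation reactions ahcy and ephx1 fell and 0 rose in DOX against DMSO, TDCIPP+DOX against DMSO and TDCIPP+DOX against TDCIPP. Of all genes 2.93%, 6.37% and 2.16% fell in these comparisons. The gene ahcy, whose enzyme clears the S-adenosylhomocysteine left by methyl transfer, stood at 666 ± 157 CPM in TDCIPP+DOX, 2437 ± 167 in TDCIPP, 1687 ± 617 in DOX and 3598 ± 351 in DMSO. It was also lower in TDCIPP+DOX than in DOX (edgeR adjusted p = 0.0455). That call was lost with only the groups compared in the fit and without any 1 TDCIPP+DOX library. Those fits called 0 of all genes in this comparison. The microsomal epoxide hydrolase gene ephx1 stood at 30.7 ± 2.80 CPM in TDCIPP+DOX, 54.9 ± 5.49 in TDCIPP, 31.9 ± 2.53 in DOX and 54.8 ± 8.01 in DMSO. Of 15 tested transporter genes 1 was called, the organic anion uptake gene slco1d1, lower in TDCIPP+DOX at 122 ± 37.7 CPM than in DMSO at 242 ± 21.4 CPM (edgeR adjusted p = 0.0271). For TDCIPP+DOX against DMSO the log2 fold change under TMM was -0.99 for slco1d1 and -0.84 for ephx1. The median over all genes in that comparison was 0.10 under TMM and 1.11 under library totals. Whether the falls of slco1d1 and ephx1 hold under library totals was not tested. Of 16 tested regulators keap1a, which holds back the Nrf2 factor, fell in DOX and TDCIPP+DOX against DMSO and in TDCIPP+DOX against TDCIPP. The shares of all genes that fell are those given above with ahcy and ephx1. The bile acid receptor gene nr1h4 fell in DOX, at 11.5 ± 5.33 CPM against 37.8 ± 3.85 CPM in DMSO (edgeR adjusted p = 0.0137).

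The 9 members that were not tested had few reads. The genes ugt5e1 and ugt5g2 had 0 reads in all 12 libraries, where 3 reads correspond to 0.0533 to 0.145 CPM. Of the other 7, gstk2, gstp2, sult1st7, sult1st9, sult4a1, ugt1b2 and ugt5a2, the highest value in any library was 2.07 CPM, of ugt1b2 in TDCIPP+DOX replicate 3, where the next was 0.292 CPM. The library TDCIPP+DOX replicate 3 was the highest of the 12 for 16 of the 62 tested members, against 2 to 8 for each of the others. The same count was not made over all genes, so it cannot be read as particular to the members. The omega class gene gsto2 was highest in DOX replicate 3, the library with oocyte transcripts, at 18.9 CPM, against at most 4.97 CPM elsewhere, and the part of those transcripts in its value was not tested.

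In the authors' deposited table of adjusted p-values, whose test is not named in the sources used here, 2 of 69 members with a p were under 0.05 for DOX against DMSO, sult1st1 and ugt2a7 (ENSDARG00000091624). Over all genes with a p it was 194 of 27004. The authors' deposited table had 6 such members for TDCIPP+DOX against DMSO, the 5 called here and gstm.1, and 0 for TDCIPP+DOX against DOX. Over all genes with a p these were 1356 of 27194 and 34 of 27804.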

How the data were processed

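Liver RNA was extracted with Trizol and libraries were made with a NEBNext Ultra kit, per the labels' protocols. Reads were aligned with HISAT, per the submitters' processing notes. The sources used here do not give the counting program, its use of strand or the genome build. The deposited table holds whole-number read counts per gene for 12 libraries, with gene lengths and the authors' adjusted p-values. All 12 count columns were matched to samples by name, and 0 were left unmapped.

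Counts were tested with edgeR 4.0.16 (limma 3.58.1, R 4.3.3): genes were filtered by group with filterByExpr, scaled with TMM and fitted with all 12 libraries in 1 quasi-likelihood model with 8 residual degrees of freedom. The p-values were adjusted with Benjamini and Hochberg's method over 19160 genes per comparison, at a threshold of 0.05. The SE of a log2 fold change is its size divided by the square root of the F statistic. The filter, scaling, groups fitted, replicate block, left-out libraries and DESeq2 1.42.0 were alternatives. Another required a log2 fold change of at least 1 in the main fit. All called members lay beyond that limit, so it could not change their calls. The counts of alternatives include it. The procedure was tested on simulated data.

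Members described singly were those called in any comparison, the 6 with the highest mean CPM of each family, and the 2 with the largest differences each way per comparison among those past an unadjusted p of 0.05. Others (gsto2, ugt5b5, gstm.3, ugt5b3, neighbours and untested genes) were named after their values were seen. The members and lists were chosen with earlier results of these data known. Depth was 28621536 to 40877342 counts per library. Counting intervals and floors of 3 reads cover counting error only. Sequences were not used here.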

Additional observations from a re-analysis of the deposited data

How the results depend on the processing

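The number of members tested depended on the fit. It was 62 among 19160 genes in the main fit and 69 among 28600 without the filter. DESeq2 fitted the same 69 and 28600, which can include genes that it left without an adjusted p, so shares of them are lower limits. Without the 4 libraries it was 61 among 19171. With only the groups compared it ran from 57 among 16261 genes to 61 among 18258. The count of members called also depended on the fit, and calls over all genes are given beside it or below. For DOX against DMSO, with 5 called, it was 11 under library totals, 0 with only the groups compared in the fit and 1 to 6 with 1 library left out. For TDCIPP+DOX against DOX, with 1 called, it was 7 with DESeq2, 0 without the count filter, with only the groups compared or without the 4 libraries with oocyte or intestine transcripts, and 0 to 3 with 1 library left out. For TDCIPP+DOX against DMSO, with 5 called, it was 13 of 69 with DESeq2, 31 of 62 under library totals, 11 of 60 with only the groups compared and 9 of 61 without the 4 libraries. Over all genes the same fits called 3453 of 28600, 7271 of 19160, 3084 of 17648 and 2306 of 19171. With 1 library left out 4 to 10 members were called. For TDCIPP+DOX against TDCIPP, with 3 called, it was 7, 11 and 6 with DESeq2, library totals and without the 4 libraries, and 0 to 5 with 1 left out. Over all genes DESeq2 called 1638 of 28600, library totals 2724 of 19160 and the fit without the 4 libraries 844 of 19171. DESeq2 called 1 member for TDCIPP against DMSO and 3 for the interaction, where edgeR called 0. Values of sult1st1 that were not called changed sign: for TDCIPP against DMSO -0.04 without DMSO replicate 1 and -0.065 without DMSO replicate 2 (-0.065 to 1.04 with 1 library left out), and for TDCIPP+DOX against DOX -0.12 without DOX replicate 3, -0.06 without TDCIPP+DOX replicate 3 (-0.12 to 0.52 with 1 left out) and -0.33 without the 4 libraries. The causes were not tested.

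Libraries with the same replicate number did not deviate together more than others. Their r was -0.225 to 0.182 over 18 pairs, against -0.229 to 0.242 for pairs with different numbers. Such values show no pairing by number but cannot exclude it. With a replicate block the members called were 0 for TDCIPP against DMSO, 5 for DOX against DMSO, 0 for TDCIPP+DOX against DOX, 7 for TDCIPP+DOX against DMSO, 4 for TDCIPP+DOX against TDCIPP and 0 for the interaction. Over all 19160 genes the block gave 13, 986, 256, 2060, 727 and 3 calls in the same order. Over all genes the calls for DOX against DMSO were 1315, against 2636 with DESeq2, 5033 under library totals, 822 without the filter, 97 with only the groups compared, 684 without the 4 libraries and 209 to 1306 with 1 left out. For TDCIPP+DOX against DOX they were 403, against 2102, 142, 143, 0, 57 and 0 to 476 in the same order, and 256 with the block. For TDCIPP+DOX against DMSO they were 2241, against 3453 with DESeq2, 7271 under library totals and 1017 to 3391 with 1 left out, and for TDCIPP+DOX against TDCIPP 801, against 1638, 2724 and 127 to 1339. For TDCIPP against DMSO they were 8, against 414 with DESeq2, 17 without the filter, 13 with the block, 0 without the 4 libraries and 0 to 20 with 1 left out, and for the interaction 5, against 278, 16, 3, 0 and 0 to 10.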
